A study of Mus musculus with 6 samples.

Results

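The heat shock response and the unfolded protein response keep proteins folded, and 40 of their genes were followed here in RNA from the ventral dentate gyrus of mice. The dentate gyrus is the part of the hippocampus that relays cortical input, and its ventral end is tied to mood and anxiety. The 40 genes were a fixed list of cytosolic, mitochondrial and endoplasmic reticulum (ER) chaperones and stress sensors, matched by gene symbol among 24062 symbols. All 40 were found, and all 40 passed the filter on low counts that left 14058 genes to test. They comprised 15 cytosolic chaperones and partners, 3 mitochondrial chaperones, 2 heat shock factors, 13 ER folding genes, 2 genes of ER-associated degradation and 5 ER stress sensors and factors.

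CRS held mice under chronic restraint, and Ctrl held mice that were not stressed. All animals were males of the strain labelled C57black 6. There were 3 libraries in each group, CRS1 to CRS3 and Ctrl1 to Ctrl3, described as biological replicates. The labels used here do not give the age of the animals, the length of the restraint, the time from the last restraint to dissection or the number of animals in a library. The libraries were made from total RNA with a stranded kit after ribosomal RNA removal and were read as single 100-base reads.

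Each library held 8305753 to 10107953 counts assigned to genes, and levels are given as CPM, counts scaled to a common library size with TMM factors. A count of 3 corresponds to 0.294 to 0.363 CPM, depending on the library, so the least abundant members carry the largest counting error. CRS1 stood apart from the other 5 libraries. Its summed level of 10 choroid plexus markers was 4830 CPM, against 25.1 to 33.3 CPM elsewhere. Its 6 measured striatal markers summed to 768 CPM, against 160 to 179 CPM, its 6 ependymal markers to 87.7 CPM, against 6.95 to 10.7 CPM, and its 5 oligodendrocyte markers to 4152 CPM, against 1727 to 2728 CPM. Its 7 dentate granule neuron markers summed to 549.8 CPM, against 972 to 1255 CPM. Its 5 astrocyte markers summed to 1178 CPM, against 1307 to 1544 CPM, and its 4 fibroblast markers to 33.3 CPM, against 47.2 to 90.5 CPM. Its 4 markers of neighbouring CA3 pyramidal neurons summed to 1483 CPM, and each was highest there. The CA3 sum was also higher in every CRS library than in every Ctrl library. It was 1025 and 1077 CPM in CRS2 and CRS3, against 955, 838 and 972 CPM in Ctrl1, Ctrl2 and Ctrl3. For each of the 4 CA3 markers alone the groups overlapped, and the sum rests mainly on the abundant Nptx1 and Sv2b. Without CRS1 the log2 fold changes were 0.27 for Nptx1 and 0.17 for Sv2b, but -0.18 for Bok and -0.031 for Grik4. Thalamus and habenula markers followed the groups in the other direction, and not CRS1 alone. The 4 thalamus and habenula markers summed to 113, 164 and 134 CPM in CRS1, CRS2 and CRS3, against 229, 267 and 259 CPM in Ctrl1, Ctrl2 and Ctrl3, and each of the 4 was lower in every CRS library than in every Ctrl library. Without CRS1, Slc17a6 and Rora of that list passed the threshold of 0.05 (log2 fold changes -1.03 and -0.61, adjusted p = 0.015 and 0.038 in edgeR's quasi-likelihood test). Of the astrocyte markers, Aldh1l1 and Gjb6 were lower in every CRS library than in every Ctrl library, while Aqp4, Gfap and Slc1a3 overlapped. All 7 granule neuron markers were detected in every library. Results are therefore given with all 6 libraries and again without CRS1. In bulk tissue, fewer cells of a type and less RNA per cell cannot be told apart.

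When proteins unfold in the cytosol, the transcription factor HSF1 is released from chaperones, forms trimers and switches on genes for the HSP70, HSP90 and small heat shock families, which hold or refold the damaged chains. When they unfold in the ER, the sensors IRE1 (Ern1), PERK (Eif2ak3) and ATF6 are set free from the chaperone BiP (Hspa5). IRE1 splices the Xbp1 message, ATF6 is cut to an active factor, and PERK slows translation and favours ATF4 and CHOP (Ddit3). XBP1 and ATF6 then raise ER chaperones, disulfide isomerases and the degradation machinery. In neurons the constitutive chaperones are abundant, and stress steroids act through a receptor that HSP90 and HSP70 hold ready for its ligand.

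The regulatory letters that the members are known for can be read in their promoters. RefSeq (GRCm38.p6) gave a promoter, the 250 bases before to 50 bases after the gene start, for 32 of the 40 members. The ER stress response element, the site of ATF6 with NF-Y, was searched as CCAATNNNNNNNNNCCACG on both strands. It was present in 7 of the 11 ER folding genes that had a promoter, in none of the other 21 members with one, and in 0.137% of 27025 genes. These 7 genes are shown because they carry the letters known to link ER chaperones to the ER stress sensors. Each line is 60 bases, 5′ to 3′ on the strand of the gene, with the element in capitals, and Hsp90b1 carries it at 2 places.
Hspa5, chr2:34772005-34772064, plus strand: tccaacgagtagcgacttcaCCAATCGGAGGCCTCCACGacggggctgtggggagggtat
Hsp90b1 (farther), chr10:86705617-86705676, minus strand: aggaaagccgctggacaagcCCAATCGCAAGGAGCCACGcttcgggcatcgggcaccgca
Hsp90b1 (nearer), chr10:86705512-86705571, minus strand: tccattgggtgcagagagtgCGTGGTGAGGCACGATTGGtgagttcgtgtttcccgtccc
Dnajc3, chr14:118937807-118937866, plus strand: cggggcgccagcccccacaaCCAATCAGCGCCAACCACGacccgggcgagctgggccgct
Calr, chr8:84847054-84847113, minus strand: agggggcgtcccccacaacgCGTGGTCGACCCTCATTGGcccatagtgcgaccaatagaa
Canx, chr11:50325779-50325838, minus strand: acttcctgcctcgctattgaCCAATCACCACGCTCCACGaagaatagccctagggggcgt
Pdia6, chr12:17266471-17266530, plus strand: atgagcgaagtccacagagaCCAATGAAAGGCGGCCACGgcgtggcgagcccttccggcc
Creld2, chr15:88819500-88819559, plus strand: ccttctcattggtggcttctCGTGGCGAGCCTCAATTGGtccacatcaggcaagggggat

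Herpud1, a degradation gene, has the second form of the element, ATTGGNCCACG, which was found in 0.0444% of all genes searched on both strands and in no other member. It is shown as the single degradation gene with such letters, again in capitals.
Herpud1, chr8:94386353-94386412, plus strand: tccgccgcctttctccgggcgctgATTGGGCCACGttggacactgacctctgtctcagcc

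Heat shock elements are inverted repeats of GAA, bound by HSF1. The pair GAANNTTC, searched on both strands, was present in 6 of 12 cytosolic and 2 of 2 mitochondrial promoters, in none of the 11 ER folding promoters and in 9.04% of all genes. The opposite pair, TTCNNGAA, was present in Eif2ak3, Hspd1, Hspe1 and Hsph1 and in 9.6% of all genes. Promoters with 3 alternating units, GAANNTTCNNGAA or its reverse complement, were found for Hspd1, Hspe1 and Hsph1, and in 0.662% of all genes. The 3-unit search overlaps both pairs. The site TGACGTGG, searched on both strands, was in no member and in 0.714% of genes. A match describes letters in a window and does not show that a factor was bound. The inducible pair Hspa1a and Hspa1b, the small heat shock gene Hspb1, Hspe1 and Hsph1 with their longer runs, and Dnaja1 are shown because they carry the letters known to link chaperones to HSF1. Capitals mark the repeats.
Hspa1a, chr17:34972227-34972286, minus strand: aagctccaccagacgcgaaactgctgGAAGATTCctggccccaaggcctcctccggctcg
Hspa1b, chr17:34959309-34959368, minus strand: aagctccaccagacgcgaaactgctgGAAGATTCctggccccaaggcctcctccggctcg
Hspb1, chr5:135887786-135887845, plus strand: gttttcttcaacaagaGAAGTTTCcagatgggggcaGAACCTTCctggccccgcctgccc
Hspe1, chr1:55088038-55088097, plus strand: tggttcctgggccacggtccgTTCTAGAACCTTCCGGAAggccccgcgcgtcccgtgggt
Hsph1, chr5:149636287-149636346, minus strand: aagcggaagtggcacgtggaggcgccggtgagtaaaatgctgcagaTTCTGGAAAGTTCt
Dnaja1, chr4:40722318-40722377, plus strand: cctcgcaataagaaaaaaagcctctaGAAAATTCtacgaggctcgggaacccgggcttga

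The 60 bases shown for Hspa1a and Hspa1b are the same letters, and their whole promoters match at 296 of 300 bases. Their transcripts share long stretches too. Of all 100-base stretches of Hspa1a transcripts, 56.5% also occur in transcripts of another gene, and 49.9% of those of Hspa1b do. In all, 8 members share at least 10% of these stretches with another gene, namely Hspa1a, Hspa1b, Hspb1, Hsp90aa1, Hspa8, Hspd1, Dnaja1 and Hspe1, and how such reads were counted makes their values less certain. The element shown for Hsph1 lies after the gene start.

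No member passed the threshold, an adjusted p under 0.05 in edgeR's quasi-likelihood test with Benjamini-Hochberg adjustment over 14058 genes. This held with all 6 libraries and without CRS1. Of all genes, 0% were called higher and 0.0285% lower in CRS with all libraries, and 0.0925% higher and 0.221% lower without CRS1. At an unadjusted p under 0.05, 2 members were higher and 0 lower, where 3.86% of all genes were higher and 4.85% lower. Without CRS1, 1 member was higher and 2 were lower, against 5.55% and 5.95% of all genes. With all 6 libraries, DESeq2, limma-voom and edgeR's exact test called no member either.

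Library by library, few members were separated. In 2 members, Hspa1a and Hyou1, every CRS library was above every Ctrl library, and in 1, Eif2ak3, every CRS library was below, which happened for 6.74% and 7.87% of all genes. Without CRS1 the count was 3 higher and 3 lower, beside 14.6% and 14.6% of all genes. Of the 40 members this is 5% higher and 2.5% lower with all libraries, and 7.5% each way without CRS1, so no share was above that of all genes in either setting. The thalamus and habenula markers and the CA3 sum, but no CA3 marker alone, separated the groups in the same libraries. The part of these markers in the levels of the members was not tested.

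**Figure D1:**
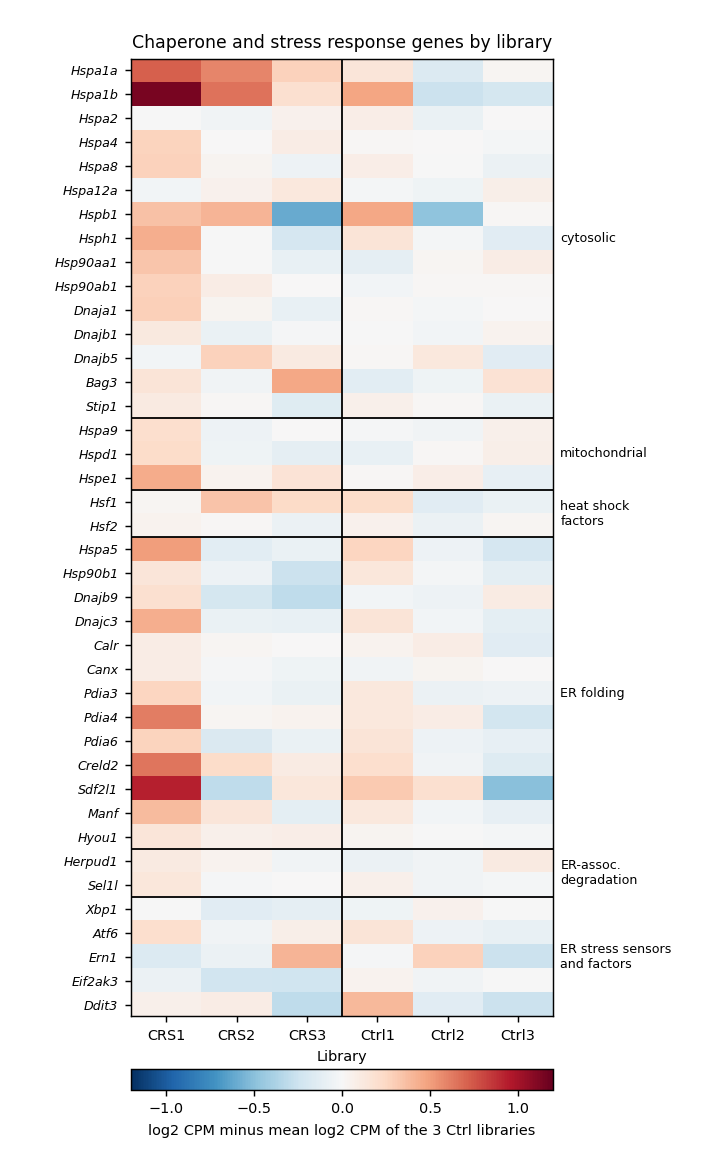
Level of each of the 40 members in each library, as log2 CPM relative to the mean of the 3 Ctrl libraries, with members down the page by compartment and CRS libraries left of Ctrl libraries. Red is above the Ctrl mean and blue below it, and the column of CRS1 is mostly red, with 28 of 40 members highest there.

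High levels were not spread evenly over the libraries. CRS1 was the library with the highest level for 28 of 40 members (70%), against 25.5% of all tested genes, and the lowest for none, against 25.3% of all tested genes. The count was 13 of 13 for ER folding genes, 10 of 15 for cytosolic genes and 3 of 3 for mitochondrial genes. It was 1 of 2 for ER-associated degradation, 1 of 5 for ER stress sensors and factors and 0 of 2 for heat shock factors. No test was run on these counts. CRS1 was also the library with the high choroid plexus, ependymal, striatal, oligodendrocyte and CA3 pyramidal sums. Its granule neuron, astrocyte, fibroblast, and thalamus and habenula sums were the lowest of the 6 libraries. In that library all 10 choroid plexus, all 6 ependymal, all 6 striatal, all 5 oligodendrocyte and all 4 CA3 markers were highest. None of them was at 0 in all of the other 5 libraries. The part of those tissues in the chaperone levels was not tested.

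**Figure D2:**
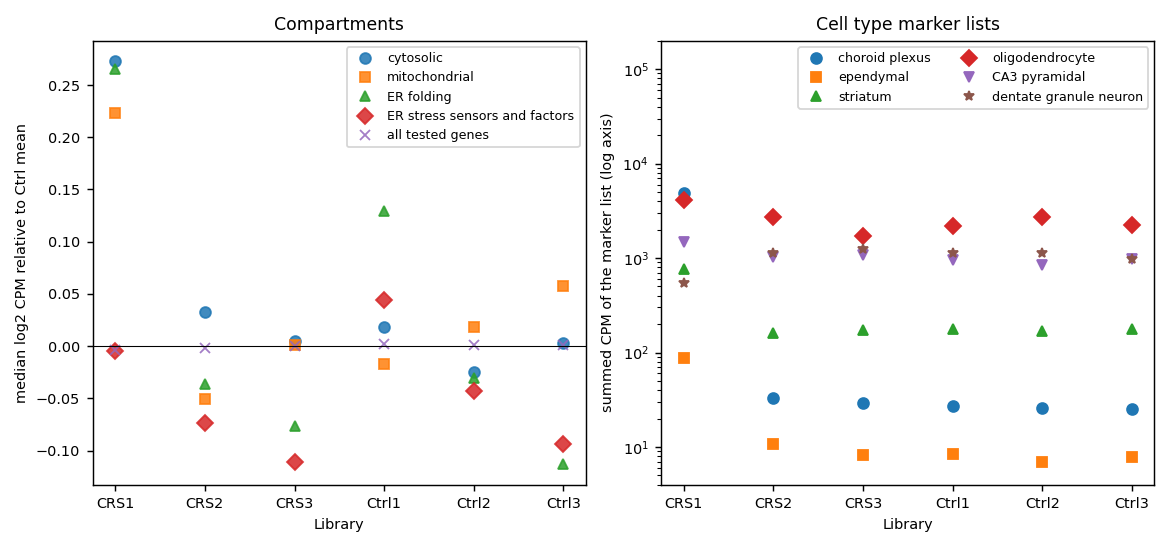
Left, the median over each compartment's members of log2 CPM relative to the Ctrl mean, by library. Right, the summed CPM of 6 marker lists by library on a log axis. CRS1 has medians of 0.27, 0.22 and 0.27 for cytosolic, mitochondrial and ER folding genes and the highest choroid plexus, ependymal, striatal, oligodendrocyte and CA3 sums.

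Among cytosolic genes, the inducible HSP70 genes had the largest differences of all members. Hspa1a (chromosome 17, 34969190 to 34972156, minus strand) and Hspa1b (chromosome 17, 34956436 to 34959238, minus strand), a pair in the class III region of the major histocompatibility complex, encode nearly the same stress-inducible HSP70 protein. Hspa1a had 7.73, 7.09 and 5.71 CPM in CRS1, CRS2 and CRS3, against 5.20, 4.21 and 4.78 CPM in Ctrl1, Ctrl2 and Ctrl3. The groups did not overlap, and the lowest CRS value was 5.71 CPM against a highest Ctrl value of 5.20 CPM. The log2 difference came to 0.53 (SE 0.19), at an adjusted p of 0.505 in edgeR's quasi-likelihood test, and 0.44 without CRS1. Hspa1b had 10.6, 7.56 and 5.50 CPM in CRS1, CRS2 and CRS3, against 6.65, 4.01 and 4.14 CPM in Ctrl1, Ctrl2 and Ctrl3. The groups overlapped, since CRS3 was below Ctrl1. The log2 difference came to 0.68 (SE 0.29), at an adjusted p of 0.567 in the same test, and 0.42 without CRS1. Both were above 0 in each fit that left out a library. Reads shared by the pair cannot be assigned to either gene, but their sum does not depend on how counted reads were split between them, although reads dropped for matching both would be missing from it. The sum was 18.3, 14.7 and 11.2 CPM in CRS1, CRS2 and CRS3, against 11.8, 8.23 and 8.93 CPM in Ctrl1, Ctrl2 and Ctrl3. The mean sum was 14.7 ± 3.55 CPM in CRS and 9.67 ± 1.92 CPM in Ctrl (SD, n = 3 each), and CRS3 lay below Ctrl1. Hspa1a also overlaps the exons of another annotated gene on the opposite strand, and the strand setting of the counting is not given in the sources used here.

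**Figure D3:**
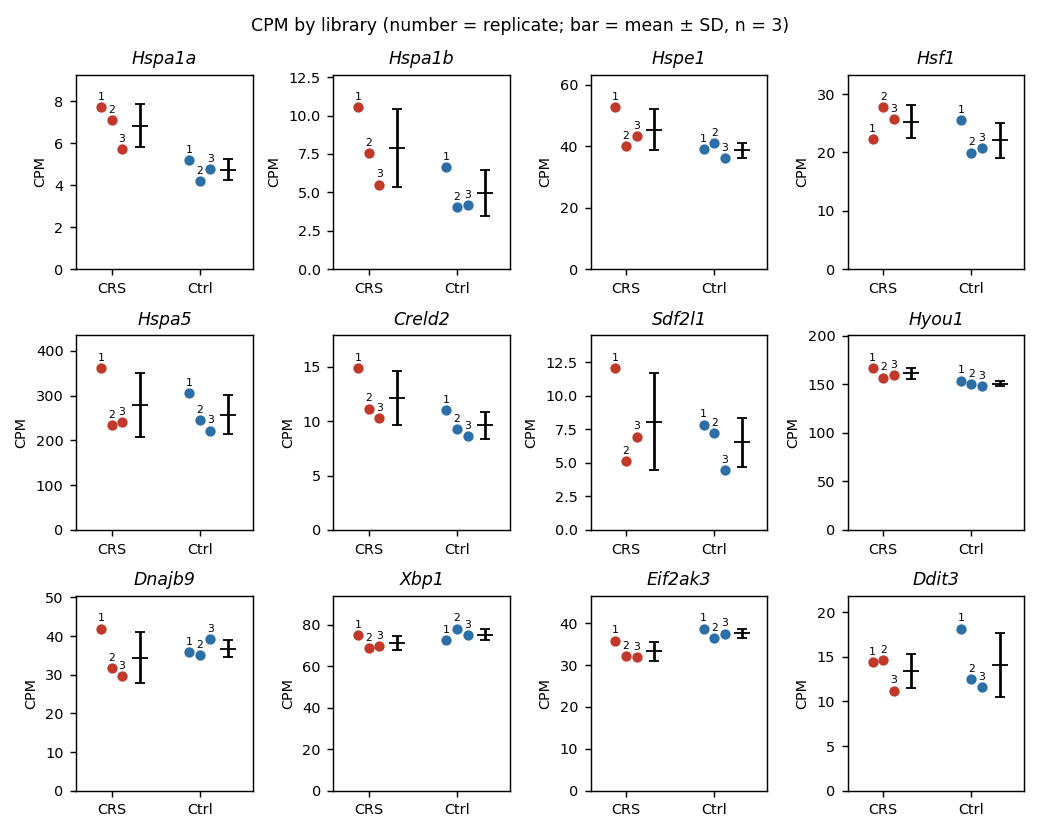
CPM of chosen members in each library, CRS left of Ctrl, with one point per library, numbered by replicate, and a bar for the mean ± SD (n = 3). For Hspa1a the CRS points at 5.71 to 7.73 CPM all lie above the Ctrl points at 4.21 to 5.20 CPM, while for Hspa5 CRS1 at 362 CPM is apart from the other CRS points at 234 and 241 CPM.

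The most abundant chaperones were near their Ctrl levels in CRS2 and CRS3. Hspa8, the constitutive HSC70 that shuttles clients to HSP90 and to lysosomes, had 2639, 2240.0 and 2095 CPM in CRS1, CRS2 and CRS3, against 2303, 2173 and 2081 CPM in Ctrl1, Ctrl2 and Ctrl3. CRS2 and CRS3 lay within the Ctrl range, and the log2 fold change was 0.089 (SE 0.091), or -0.0092 without CRS1. Hsp90aa1 and Hsp90ab1 encode the inducible and constitutive forms of cytosolic HSP90. Hsp90aa1 had 1522, 1201 and 1137 CPM in the CRS libraries, against 1118, 1226 and 1281 CPM in the Ctrl libraries. CRS2 and CRS3 were again inside the Ctrl range. The log2 fold change was 0.091 (SE 0.11), or -0.045 without CRS1. Hsp90ab1 had 1658, 1457 and 1375 CPM in the CRS libraries, against 1340.4, 1387 and 1385 CPM in the Ctrl libraries. CRS1 and CRS2 were above every Ctrl library and CRS3 was not, with a log2 fold change of 0.13 (SE 0.078), or 0.050 without CRS1. These 3 genes made up most of the summed CPM of the compartment. The summed cytosolic level was 7437, 6356 and 6036 CPM in CRS1, CRS2 and CRS3, against 6221, 6192 and 6156 CPM in Ctrl1, Ctrl2 and Ctrl3.

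Partners of HSP70 and HSP90 were mostly highest in CRS1 as well. Hspa4, an HSP70 relative that frees nucleotide from HSP70, had 339.8, 283 and 299 CPM in the CRS libraries, against 284, 284 and 278 CPM in the Ctrl libraries. CRS2 and CRS3 differed from Ctrl by little, and the log2 fold change was 0.13 (SE 0.078), and 0.050 without CRS1. Dnajb1 is an HSP40 cochaperone that delivers clients to HSP70 and is itself a heat shock target. It had 51.6, 45.0 and 47.2 CPM in the CRS libraries, against 47.4, 46.4 and 48.8 CPM in the Ctrl libraries. The groups overlapped fully, and its log2 fold change was 0.013 (SE 0.081), or -0.040 without CRS1. Hsph1, a nucleotide exchange factor of the HSP110 family, reached 254.5 CPM in CRS1, against 163 and 187 CPM in CRS3 and CRS2 and 171 to 209 CPM in Ctrl, with a log2 fold change of 0.10, or -0.10 without CRS1. For Dnaja1, an HSP40 that works with HSC70, the log2 fold change was 0.086, or -0.025 without CRS1. Stip1, the HOP adaptor that joins HSP70 to HSP90, differed by -0.0067 on the log2 scale, or -0.064 without CRS1.

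The other 5 cytosolic members were not highest in CRS1. Dnajb5, a brain HSP40, had its highest level in CRS2 and a log2 fold change of 0.12, or 0.19 without CRS1. Hspa12a, a distant HSP70 relative abundant in brain, differed by 0.049 on the log2 scale, or 0.089 without CRS1, and Hspa2, an HSP70 known from spermatogenesis, by -0.0012, or 0.0065 without CRS1. Bag3, which couples HSP70 to autophagy, and Hspb1, the small heat shock protein HSP27 in human (HSP25 in mouse), were rare, at 2.42 to 3.63 CPM and 2.08 to 4.35 CPM across the libraries. Their log2 fold changes were 0.20 (SE 0.23) and 0.079 (SE 0.35), or 0.23 and -0.054 without CRS1. For the 15 cytosolic genes, the median log2 fold change was 0.091, with 13 above 0, and 0.0065 without CRS1, with 8 above 0. Over all tested genes the medians were 0.0038 and -0.0024.

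Neither heat shock factor was highest in CRS1. Hsf1 (chromosome 15, 76477422 to 76501913, plus strand), the master activator of cytosolic chaperone genes, had 22.3, 27.8 and 25.7 CPM in CRS1, CRS2 and CRS3, against 25.5, 20.0 and 20.7 CPM in Ctrl1, Ctrl2 and Ctrl3. CRS2 and CRS3 were above every Ctrl library, by a small margin over Ctrl1, and CRS1 was inside the Ctrl range. This amounted to 0.20 on the log2 scale (SE 0.13; adjusted p = 0.742 in edgeR's quasi-likelihood test), and 0.29 with an adjusted p of 0.403 in the same test without CRS1. HSF1 is controlled mainly after translation, so its message is not a measure of its activity. Hsf2, a relative known from development, had 35.7, 34.9 and 32.9 CPM in the CRS libraries, against 35.8, 32.9 and 35.2 CPM in the Ctrl libraries, with a log2 fold change of -0.0041 (SE 0.083), or -0.027 without CRS1.

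The 3 mitochondrial chaperones were each highest in CRS1. Hspa9 (mortalin) is the matrix HSP70 that pulls imported proteins in, and Hspd1 and Hspe1 are the HSP60 chamber and its HSP10 lid. Hspa9 had 279, 234 and 243 CPM in the CRS libraries, against 240.5, 236 and 253 CPM in the Ctrl libraries. CRS1 alone was above the Ctrl range. The log2 fold change was 0.051 (SE 0.080), and -0.026 without CRS1. Hspd1 had 188, 155 and 149 CPM in the CRS libraries, against 152, 163 and 168 CPM in the Ctrl libraries. CRS2 and CRS3 were near the lower end of Ctrl, and the log2 fold change was 0.027 (SE 0.10), or -0.080 without CRS1. Hspe1 had 52.7, 39.9 and 43.2 CPM in the CRS libraries, against 38.9, 40.9 and 36.1 CPM in the Ctrl libraries. Its CRS1 and CRS3 values were above every Ctrl library, with a log2 fold change of 0.23 (SE 0.12) and an adjusted p of 0.645 in edgeR's quasi-likelihood test, and 0.11 without CRS1. Hspd1 and Hspe1 are head to head on chromosome 1 (Hspd1 55077835 to 55088243 on the minus strand, Hspe1 55088132 to 55091307 on the plus strand), share the promoter letters shown for Hspe1 and overlap by 112 exonic bases. The median log2 fold change of the 3 was 0.051, and -0.026 without CRS1.

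ER folding genes, which fold and oxidise secreted and membrane proteins, had their highest values in 1 library. All 13 were highest in CRS1, the library with the high choroid plexus sum. Hspa5 (chromosome 2, 34771970 to 34777547, plus strand), BiP, the HSP70 of the ER and the main sensor-binding chaperone, had 362, 234 and 241 CPM in CRS1, CRS2 and CRS3, against 306, 245 and 222 CPM in Ctrl1, Ctrl2 and Ctrl3. CRS1 and Ctrl1 were the high libraries, and CRS2 and CRS3 lay among Ctrl2 and Ctrl3. Its log2 fold change was 0.12 (SE 0.18), and -0.11 without CRS1. Hsp90b1 (GRP94), the HSP90 of the ER, had 368, 319 and 278 CPM in the CRS libraries, against 365, 327 and 307 CPM in the Ctrl libraries. CRS1 and Ctrl1 were nearly level, CRS3 was lowest, and its log2 fold change was -0.050 (SE 0.11), or -0.15 without CRS1.

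Among the lower-abundance ER stress targets, Sdf2l1 had the largest SE. Creld2, a secreted ER stress target with isomerase activity, had 14.9, 11.2 and 10.3 CPM in the CRS libraries, against 11.0, 9.30 and 8.61 CPM in the Ctrl libraries. All CRS libraries but CRS3 were above the Ctrl range. The log2 difference was 0.33 (SE 0.18), at an adjusted p of 0.655 in edgeR's quasi-likelihood test, and 0.16 without CRS1. Sdf2l1, which limits aggregation of ER cargo with a BiP partner, had 12.1, 5.12 and 6.95 CPM in the CRS libraries, against 7.86, 7.25 and 4.46 CPM in the Ctrl libraries. Its log2 fold change was 0.31 (SE 0.33), and -0.10 without CRS1, and Ctrl3 was below all CRS libraries. Manf, a secreted ER protein with trophic action on dopamine neurons, had 41.6, 35.2 and 29.4 CPM in the CRS libraries, against 34.8, 31.2 and 29.9 CPM in the Ctrl libraries, with a log2 fold change of 0.15 (SE 0.13), or 0.017 without CRS1. Pdia4, a disulfide isomerase, had 88.4, 58.5 and 59.3 CPM in the CRS libraries, against 63.0, 61.4 and 49.4 CPM in the Ctrl libraries. CRS1 was far above the rest, with a log2 fold change of 0.25 (SE 0.17), and 0.027 without CRS1.

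Hyou1 was the only ER folding member whose groups did not overlap with all 6 libraries. Hyou1 (chromosome 9, 44379490 to 44392369, plus strand), the ER's HSP110 relative and nucleotide exchange factor for BiP, had 167, 157 and 159.6 CPM in the CRS libraries, against 154, 150.1 and 148 CPM in the Ctrl libraries. The difference was small, with a log2 fold change of 0.10 (SE 0.062), an adjusted p of 0.724 in edgeR's quasi-likelihood test, and 0.074 without CRS1. Dnajb9 (ERdj4), an HSP40 that targets BiP clients to degradation, had 41.9, 31.6 and 29.7 CPM in the CRS libraries, against 35.9, 35.1 and 39.2 CPM in the Ctrl libraries. CRS2 and CRS3 were below all Ctrl libraries and CRS1 was above them. Its log2 fold change was -0.093 (SE 0.13), and -0.26 without CRS1 with an adjusted p of 0.32 in the same test, the smallest among the members in that fit.

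The remaining ER folding genes differed by no more than 0.11 on the log2 scale with all 6 libraries. Dnajc3 (P58IPK), a BiP cochaperone, was 125 CPM in CRS1, and 86.4 and 86.9 CPM in CRS3 and CRS2, against 85.02 to 102 CPM in Ctrl, a log2 fold change of 0.11, or -0.086 without CRS1. The lectin chaperones Calr and Canx, which hold glycoproteins, differed by 0.035 and 0.0065, and the disulfide isomerases Pdia3 and Pdia6 by 0.053 and 0.013. Without CRS1 these were 0.0096 for Calr, -0.032 for Canx, -0.055 for Pdia3 and -0.13 for Pdia6. Over the 13, the median log2 fold change was 0.098, with 11 above 0, and -0.055 without CRS1, with 5 above 0. Genes with the ER stress response element and genes without it overlapped. The log2 fold changes ran from -0.050 (Hsp90b1) to 0.33 (Creld2) among the 7 with it, and from -0.093 (Dnajb9) to 0.31 (Sdf2l1) among the 4 with a promoter that lacked it.

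The Ctrl libraries also differed among themselves. Among the 5 libraries other than CRS1, Ctrl1 was highest for 7 of 13 ER folding genes, against 25.6% of all genes, and Ctrl3 was lowest for 7 of 13, against 18.7% of all genes. The summed ER folding level was 2387, 1992 and 1941 CPM in CRS1, CRS2 and CRS3, against 2167, 2049 and 1927 CPM in Ctrl1, Ctrl2 and Ctrl3. The sums of CRS2 and CRS3 lay within the range of the Ctrl libraries.

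**Figure D4:**
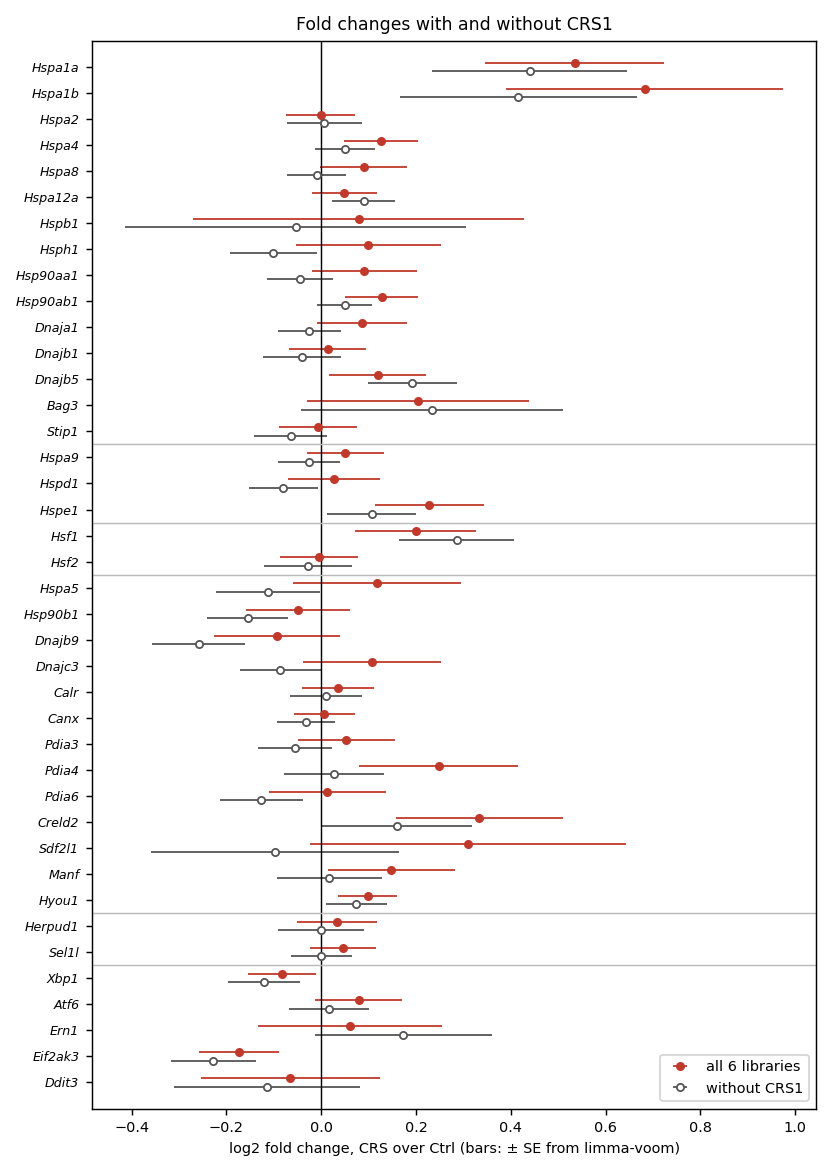
Log2 fold change of each member, CRS over Ctrl, from edgeR with standard errors from limma-voom, for all 6 libraries and without CRS1, grouped by compartment. The ER folding median of 0.098 with all libraries becomes -0.055 without CRS1, while the 2 inducible HSP70 genes are at 0.44 and 0.42 without it.

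The degradation genes hardly differed. Herpud1, a scaffold of the ER degradation complex, had 51.2, 49.0 and 46.1 CPM in the CRS libraries, against 45.3, 46.1 and 51.3 CPM in the Ctrl libraries. Sel1l, the partner of the ligase HRD1, had 241, 218 and 220.1 CPM in the CRS libraries, against 229, 213 and 216 CPM in the Ctrl libraries. The log2 fold changes were 0.034 (SE 0.085) and 0.045 (SE 0.069), or -0.0012 and 0.00051 without CRS1.

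The 5 ER stress sensors and factors, which set the unfolded protein response going, had a median log2 fold change of -0.066, or -0.11 without CRS1 and 0.043 without Ctrl1. Eif2ak3 (chromosome 6, 70844515 to 70905245, plus strand), PERK, which phosphorylates eIF2α to slow translation, had 35.8, 32.1 and 31.9 CPM in CRS1, CRS2 and CRS3, against 38.7, 36.4 and 37.5 CPM in Ctrl1, Ctrl2 and Ctrl3. Every CRS library was below every Ctrl library, and the difference was -0.17 on the log2 scale (SE 0.085), at an adjusted p of 0.635 in edgeR's quasi-likelihood test. Without CRS1 it was -0.23 with an adjusted p of 0.347. Xbp1, whose spliced message gives the factor, had 75.0, 68.6 and 69.7 CPM in the CRS libraries, against 72.7, 78.1 and 75.1 CPM in the Ctrl libraries. CRS2 and CRS3 were below every Ctrl library and CRS1 was within the Ctrl range, with a log2 fold change of -0.082 (SE 0.072), or -0.12 without CRS1. Gene counts do not separate spliced from unspliced Xbp1. Ern1 (IRE1), which splices Xbp1, had 11.4, 12.2 and 17.0 CPM in the CRS libraries, against 12.7, 15.6 and 10.7 CPM in the Ctrl libraries, with a log2 fold change of 0.061 (SE 0.19), or 0.17 without CRS1. Atf6 had 159, 134 and 145 CPM in the CRS libraries, against 154, 133 and 129.6 CPM in the Ctrl libraries, with a log2 fold change of 0.079 (SE 0.093), or 0.016 without CRS1. Ddit3 (CHOP), the pro-apoptotic factor of the PERK branch, had 14.4, 14.7 and 11.2 CPM in the CRS libraries, against 18.1, 12.5 and 11.6 CPM in the Ctrl libraries, with a log2 fold change of -0.066 (SE 0.19), or -0.11 without CRS1. Of the 5, 2 were above 0 and 3 below. Eif2ak3 exons overlap an annotated gene on the opposite strand over a small part of their length. Of the 39 members with 1 annotated gene, 11 had such an opposite-strand overlap, Dnaja1, Hsp90b1 and Manf among them. Whether counting used strand is not known for any of them.

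A wider list of 81 pathway genes, chosen as textbook members of the same compartments, was examined beside the 40, and 78 of them were tested. None passed the threshold in edgeR's quasi-likelihood test with or without CRS1, and DESeq2, limma-voom and the exact test called none with all 6 libraries. At an unadjusted p under 0.05, 1 of the 78 was higher and 1 lower in CRS, where 3.86% and 4.85% of all genes were. Without CRS1, 1 was higher and 2 lower, where 5.55% and 5.95% of all genes were. In 9 of the 78 every CRS library was above every Ctrl library and in 3 below, beside 6.74% and 7.87% of all genes. Without CRS1 these counts were 14 and 10, beside 14.6% of all genes each way, and no test was run on them. The median log2 fold change was 0.030, with 50 above 0, and 0.0013 without CRS1, with 39 above 0. CRS1 was highest for 34 of the 78 (43.6%), against 25.5% of all tested genes. By compartment these were 19 of 29 cytosolic, 7 of 13 ER folding, 6 of 12 degradation and 2 of 9 mitochondrial genes. None of the 15 sensors and genes of the ATF4 branch was among them. CRS1 was lowest for 13 of the 78, beside 25.3% of all tested genes, whereas it was lowest for none of the 40 members. The smallest p-values upward belonged to Sil1, a BiP exchange factor, with a log2 fold change of 0.33 (SE 0.11, adjusted p = 0.464 in edgeR's quasi-likelihood test), to Cacybp (0.17), and to the TRiC chaperonin subunits Cct5 (0.11) and Cct6a (0.12). Downward they belonged to Ero1lb, an ER oxidase, with -0.25 (SE 0.085, adjusted p = 0.495 in the same test), to Wfs1 (-0.69, SE 0.36), to Nck1 (-0.16) and to the HSP90 partner Fkbp4 (-0.092). Wfs1 is also a CA1 pyramidal marker, and the other 2 CA1 markers did not go the same way. Fibcd1 had 72.6, 82.5 and 136 CPM in CRS1, CRS2 and CRS3, against 19.3, 52.9 and 52.5 CPM in Ctrl1, Ctrl2 and Ctrl3, with a log2 fold change of 1.22, or 1.38 without CRS1, and Pou3f1 had a log2 fold change of 0.11, or 0.33 without CRS1. Wfs1 itself was -0.97 without CRS1. Atf4, the factor that PERK favours, differed by -0.033 on the log2 scale, or 0.015 without CRS1, and Cryab, a small heat shock protein of oligodendrocytes, by 0.29, or -0.020 without CRS1. Cryab had 56.3, 41.7 and 24.2 CPM in CRS1, CRS2 and CRS3, against 35.4, 33.0 and 31.6 CPM in Ctrl1, Ctrl2 and Ctrl3, and CRS1 was also the library with the highest oligodendrocyte sum, whose part in this was not tested.

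The order of the levels, per kilobase of exon, put the cytosolic HSC70 and HSP90 genes on top. In Ctrl, Hspa8 had 508 CPM per kilobase, Hsp90ab1 457 and Hsp90aa1 307, and the ER lectins Calr and Canx followed with 114 and 112. Hspa1a, Hspa1b and Ern1 were near the bottom, at 1.59, 1.76 and 1.59 CPM per kilobase, and Bag3 was lowest at 1.03. The Ctrl libraries of Calr and Canx overlapped in level, as did those of Hspa1a, Hspa1b and Ern1. Other genes share 28.5% of the 100-base stretches of Hspa8, 38.0% of Hsp90aa1, 56.5% of Hspa1a and 49.9% of Hspa1b. The places of these genes in the order are therefore less certain. Exon length joined the exons of all annotated transcripts of a gene, and which of them these libraries used was not tested. The order of all the genes depends on that length as well. Ddit3 was left out because its symbol matches 2 annotated genes, so 39 genes were placed.

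**Figure D5:**
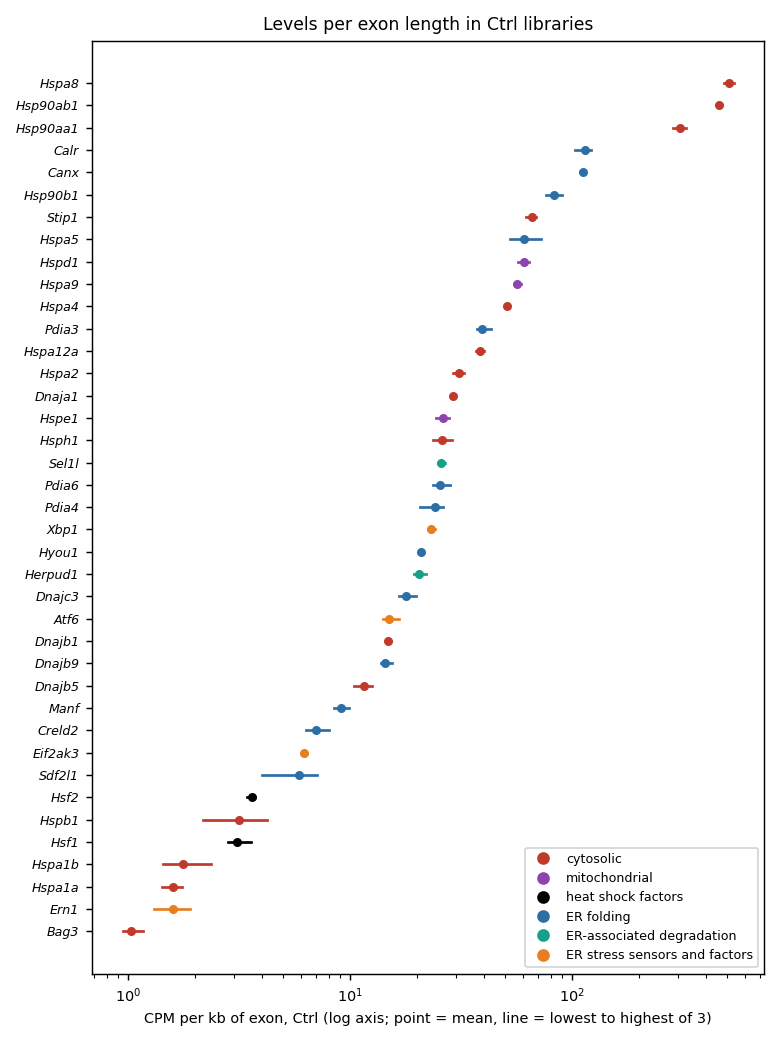
Level of 39 members in the 3 Ctrl libraries, in CPM per kilobase of exon on a log axis, with the mean as a point, the lowest to highest library as a line and the compartment as colour. Hspa8 at 508 CPM per kilobase and Bag3 at 1.03 CPM per kilobase mark the ends of the range in Ctrl.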

How the data were processed

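RNA from the ventral dentate gyrus was sequenced in 6 libraries, 3 from mice under chronic restraint (CRS) and 3 from mice that were not stressed (Ctrl). The deposited files hold raw counts per gene symbol, with tools listed in the submitters' processing notes as HTSeq 0.6.1, TopHat2 2.0.9, Trimmomatic 0.33, edgeR 3.12.0 and FastQC 0.11.3, and builds as mm10 and GRCm38. The sources used here do not state the annotation or whether counting used strand. Rows that name no gene were left out of library sizes: reads in no gene were 59.5% to 63.1% and ambiguous reads 0.211% to 0.253% of all counts, and the row for reads that align to several places was 0.

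Levels are CPM, with gene counts and TMM factors (0.982 to 1.01) as the library size. The 14058 genes that passed filterByExpr were fitted with edgeR 4.0.16 (quasi-likelihood F-test, two-sided, group only, Benjamini-Hochberg adjustment, threshold 0.05) in R 4.3.3, and standard errors came from limma 3.58.1 (voom). Alternatives comprised the exact test of edgeR, limma-voom, DESeq2 1.42.0, other scaling and filters, a replicate block and leaving out each library. Scripts were tested on simulated data. The fits without CRS1 kept the same genes and estimated scaling and dispersion anew. The common biological coefficient of variation was 12.0% with all libraries and 7.11% without CRS1. Replicates with the same number were not treated as paired. Correlations of their deviations were 0.139, -0.00332 and 0.0468, which cannot settle whether they were handled together. No 2 libraries agreed within sampling noise: chi-square per degree of freedom was at least 3.07 in every pair. SDs describe the spread between libraries. Standard errors describe the uncertainty of the group difference in the limma-voom fit, which shares variance information over genes, and stand beside fold changes from edgeR.

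The 40 members, the wider list and the marker lists were chosen with earlier results of these data known, so no test was run over a list. Values in every library are given for the 3 members of smallest p in each compartment and for a fixed set of central members, and in the wider list the 4 of smallest p in each direction are named. Other genes of the wider list (Atf4 and Cryab) and the values of Hsph1, Dnajc3, Bag3, Hspb1 and Dnajb9 were picked out after their values were seen. Positions, exon lengths and shared stretches come from GENCODE M21 (GRCm38), and promoters from RefSeq (GRCm38.p6).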

Additional observations from a re-analysis of the deposited data

How the results depend on the processing

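No alternative called any of the 40 members, and the log2 fold changes of Hspa1a, Hspa1b, Eif2ak3, Xbp1, Hsf1, Hspe1, Hyou1, Creld2, Manf and Pdia4 kept their sign in every one. Counts over all genes did depend on the setting. Beside the 0 higher and 4 lower genes of edgeR's quasi-likelihood test, DESeq2 called 39 higher and 68 lower, the exact test 44 and 87, and limma-voom 1 lower. With the replicate number as a block, 0 genes were lower. Whether samples that share a number were paired is not known here, so neither fit can be called the better estimate. Leaving out a library gave 0 to 13 genes higher and 0 to 31 lower, with 13 and 31 without CRS1, and 2 and 26 without CRS2. The cause was not tested.

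The median log2 fold change of the ER stress sensors and factors ran from -0.11 to 0.043 over the fits that left out a library, the highest without Ctrl1. Leaving out a library, 3 to 7 members were higher and 1 to 3 lower in CRS with no overlap, beside 10.4% to 14.6% of all genes higher and 11.9% to 14.6% lower. The 7 (17.5% of members) arose without Ctrl1, beside 11.9% of all genes, and without CRS3, beside 10.4%. Near 0, some signs turned with the processing. Hspa2 was 0.0018 with RLE scaling, 0.0043 with the filter at 1 CPM in 3 libraries, 0.0022 with DESeq2 and 0.0013 with limma-voom. Hsf2 was 0.0013 with the same filter. With library totals in place of TMM, Dnajb1 was -0.0013, Canx -0.0082 and Pdia6 -0.0018. Leaving out a library turned the sign of 23 members, 16 of them without CRS1, over the log2 ranges Calr -0.024 to 0.084, Canx -0.032 to 0.035, Ddit3 -0.18 to 0.15, Dnaja1 -0.025 to 0.17, Dnajb1 -0.040 to 0.057, Dnajb9 -0.26 to 0.0042, Dnajc3 -0.086 to 0.20, Ern1 -0.14 to 0.22, Herpud1 -0.0012 to 0.10, Hsf2 -0.038 to 0.030, Hsp90aa1 -0.045 to 0.17, Hsp90b1 -0.15 to 0.045, Hspa2 -0.039 to 0.038, Hspa5 -0.11 to 0.26, Hspa8 -0.0092 to 0.16, Hspa9 -0.026 to 0.10, Hspb1 -0.13 to 0.35, Hspd1 -0.080 to 0.092, Hsph1 -0.10 to 0.23, Pdia3 -0.055 to 0.12, Pdia6 -0.13 to 0.10, Sdf2l1 -0.10 to 0.55, Stip1 -0.064 to 0.060. With 3 libraries a group, of which 1 stands apart, small differences are not resolved.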
